A study of Mus musculus with 20 samples.

Results

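The mitochondrial CpG positions of this mouse zygote series were all positions that the deposited methylation calls place on chrM of the mm9 build. They numbered 403 of the 3681520 CpG positions listed in at least 1 of the 20 libraries, and ran from position 134 to position 16283 of the reference molecule. Values for single positions were taken only where all 18 libraries other than sperm held 20 or more calls, which kept 45 positions and left 358 thinly covered ones. Of all positions, 23 were listed in all 20 libraries and 69 in all 18 non-sperm libraries. Just inside the limit, position 2022 had at least 25 reads in every non-sperm library, position 2650 had 41 and position 2424 had 42. Just outside it, position 5936 fell to 19 reads in its shallowest library, position 14748 to 17 and position 3354 to 14. The choice used coverage and no methylation value.

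The study asked what the dioxygenase Tet3 and DNA replication contribute to the loss of cytosine methylation from the parental genomes of the zygote. Reduced representation bisulfite sequencing, which reads CpG sites near cuts of the enzyme MspI, was run on 2 libraries for each of 10 groups. A usual pronuclear library took 21 PCR cycles from roughly 20 pronuclei. In the group names, Pat and Mat stand for the paternal and the maternal pronucleus, and Aphi for aphidicolin. WT zygotes came from f/f females, and CKO zygotes from Zp3-Cre, f/- females whose Cre is driven by the oocyte-specific Zp3 promoter, so the deletion of Tet3 was made in the oocyte. All these females were 7 to 10 weeks old and superovulated, and all eggs were fertilised in vitro with C57BL/6J sperm, so the paternal chromosomes came from the same strain in both genotypes. Aphidicolin was given at 3 µg/ml from 5 hours post fertilisation (hpf), and the libraries without it are called mock, as labelled. Pronuclei were drawn out of the zygotes with a micromanipulator at 12 hpf and frozen at 13 hpf. The gamete groups, Sperm and Oocyte, were labelled WT and mock. The labels do not say whether libraries of 1 group came from separate animals, or whether the pronuclei of 1 zygote went into a paternal and a maternal library, so the p-values measure the spread between these libraries and could be too small.

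Mitochondrial DNA is a small circular molecule held in many copies in the cytoplasm, and an oocyte carries far more of them than a sperm. It is inherited through the egg. It is copied by its own DNA polymerase gamma, whereas aphidicolin blocks the replicative polymerases of the nucleus. A pronucleus itself holds no mitochondria. Whether mammalian mitochondrial DNA carries cytosine methylation at all has long been disputed, and bisulfite sequencing counts an unconverted cytosine as methylated whether it was 5-methylcytosine, 5-hydroxymethylcytosine or an unmodified base that escaped conversion. Segments of mitochondrial sequence also lie in nuclear chromosomes. Whether any call placed on chrM came from such a copy was not tested.

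Total CpG calls per library, nuclear and mitochondrial, ranged from 22431861 to 68056783. Those of the 8 mock pronuclear libraries ranged from 37303719 to 68056783, and those of the 8 aphidicolin libraries from 22431861 to 50098408. The mock pronuclear files also list their chromosomes in another order than the aphidicolin and gamete files, so treatment and the way a file was prepared cannot be told apart. Genotype and parent can be compared within each treatment. No 2 libraries of a group were copies of each other: by a chi-square test, their coverage of the kept positions differed by more than sampling noise in each of the 10 groups. Calls on the same read are not independent, and PCR copies could not be recognised, so the intervals given for single libraries cover counting error only.

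Mitochondrial DNA made up a large part of the oocyte libraries and almost none of the sperm libraries. In the oocyte libraries 20.0% and 19.4% of all CpG calls were mitochondrial. In the sperm libraries 1159 and 1381 calls were mitochondrial, a share of 0.00213% (95% Wilson interval 0.00201 to 0.00225) and 0.00260% (0.00247 to 0.00274). Both pronuclei lay between the gametes. WT-Mat libraries held 1.47% and 1.63%, which was 12.7-fold lower than in oocytes, and WT-Pat libraries held 1.57% and 1.70%, which was 695-fold higher than in sperm. Within each of these comparisons the libraries did not overlap, but 2 libraries against 2 cannot give an exact permutation p below 0.333, the value found for both. On the log2 scale WT-Mat minus oocyte was -3.67, and -3.92 without the 3 deepest mitochondrial positions. WT-Pat minus sperm was 9.44, and 7.68 without them, so the size of these folds rested partly on the 3 positions. A share of calls rests on both kinds of DNA, so more mitochondrial DNA and less nuclear DNA in a library cannot be told apart.

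**Figure D1:**
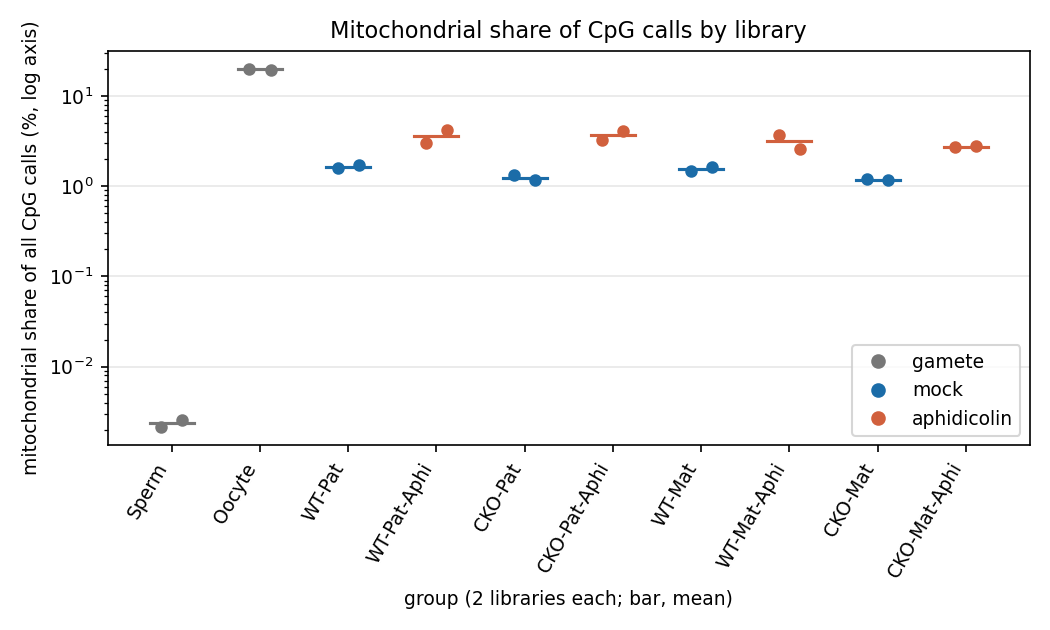
Share of all CpG calls that were mitochondrial, in percent on a log axis, for each library (points) and group mean (bars). The 8 aphidicolin libraries lie between 2.60% and 4.19%, above the 8 mock pronuclear libraries at 1.16% to 1.70%.

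The aphidicolin libraries held more mitochondrial calls than the mock libraries in each genotype and parent. WT-Pat-Aphi libraries held 3.02% and 4.19% mitochondrial calls. CKO-Pat libraries held 1.32% and 1.16% and CKO-Pat-Aphi libraries 3.27% and 4.11%. WT-Mat-Aphi libraries held 3.73% and 2.60%. The lowest of the 8 aphidicolin libraries thus lay above the highest of the 8 mock libraries, as the plot of mitochondrial share by library shows. CKO-Mat libraries held 1.19% and 1.17% and CKO-Mat-Aphi libraries 2.68% and 2.79%. Over the 4 strata of genotype and parent, the share was 2.34-fold higher with aphidicolin, a difference of 1.23 on the log2 scale (exact two-sided stratified permutation test, n = 8 against 8, p = 0.00154, the smallest it can give, adjusted p = 0.00772 over 15 tests). The fold was 2.01 in WT maternal, 2.18 in WT paternal, 2.32 in CKO maternal and 2.96 in CKO paternal pronuclei. Without the 3 deepest positions the log2 difference was 0.77 with the same exact p of 0.00154. The 8 libraries of each treatment then overlapped, at 0.0543% to 0.0758% in mock and 0.0731% to 0.148% with aphidicolin.

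Neither genotype nor parent passed the test on the mitochondrial share. The share was 0.850-fold in CKO relative to WT (log2 difference -0.23, exact stratified permutation p = 0.0540, adjusted p = 0.162). Within the mock libraries all 4 CKO values, 1.16% to 1.32%, lay below all 4 WT values, 1.47% to 1.70%, with a fold of 0.759 (exact p = 0.0556, the smallest that stratum can give). Within the aphidicolin libraries the fold was 0.952 (exact p = 0.889). Without the 3 deepest positions the log2 difference in mock libraries moved from -0.40 to -0.10 (exact p = 0.556). Maternal libraries held a 0.875-fold share relative to paternal ones (log2 difference -0.19, exact p = 0.0802, adjusted p = 0.201). Leaving out WT-Pat-Aphi replicate 1, WT-Mat-Aphi replicate 2 or CKO-Pat-Aphi replicate 2 brought the exact permutation p of the genotype comparison to 0.0139, 0.0185 and 0.0278. Leaving out WT-Mat-Aphi replicate 1 or WT-Pat-Aphi replicate 1 brought the parent comparison to p = 0.0324 and 0.0432 by the same exact permutation. No difference of the treatment effect was detected between genotypes (log2 difference of effects 0.33, exact permutation p = 0.662) or parents (-0.23, exact p = 0.739), nor the genotype effect between parents (-0.11, exact p = 0.644). A missed threshold here does not show that the effects were equal.

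Coverage along the molecule was concentrated at a single place. Positions 6232, 6264 and 6276, all on the minus strand and within 45 bases, had mean coverages of 613964, 613712 and 613512 calls over the 18 non-sperm libraries. Within any of these libraries the 3 coverages differed by at most 0.0943%. Together they held 94.4% to 97.2% of all mitochondrial calls there. The next position, 2553, averaged 9219 calls, 66.5-fold less, and position 2536, the fifth deepest, averaged 7890. The median of the other 42 kept positions was 832 calls. In the sperm libraries the 3 positions held 75.6% and 92.8% of the mitochondrial calls.

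**Figure D2:**
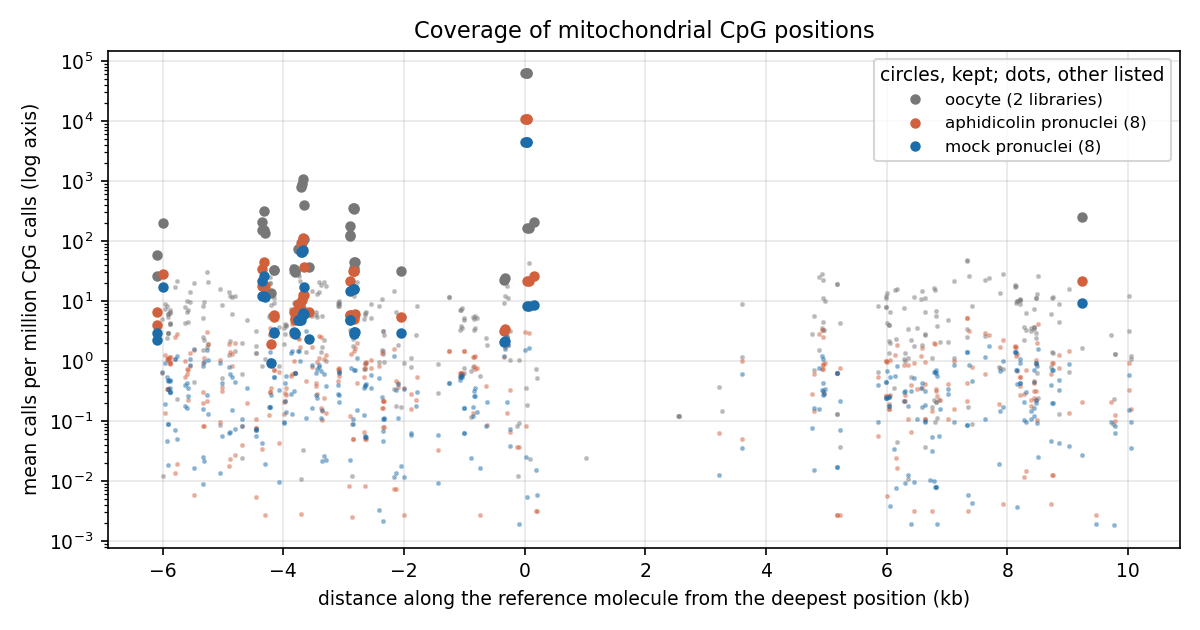
Mean CPM, calls scaled to the library's total of CpG calls (log axis), at each mitochondrial position against its distance from the deepest position in kb, for oocyte, aphidicolin and mock libraries. The 45 kept positions (circles) form a few clusters, the 3 deepest stand apart, and the oocyte values lie above the aphidicolin values, which lie above the mock values in the clusters.

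The kept positions fell into 8 stretches, counting as 1 stretch positions less than 200 bases apart. These were 134 to 230 (3 positions), 1871 to 2080 (8), 2408 to 2650 (15), 3333 to 3412 (9), the single position 4187, 5889 and 5904, 6232 to 6390 (6) and the single position 15466. No position was kept between 6390 and 15466, although 144 were listed there, the deepest with a mean of 368 calls. Each stretch held a higher CPM, its calls scaled to the library's total of CpG calls, with aphidicolin than in mock libraries, by 1.54-fold (5889 to 5904) to 2.38-fold (6232 to 6390). In oocyte libraries the CPM was 10.6-fold (position 4187) to 26.3-fold (position 15466) that of mock libraries. The folds with aphidicolin are of mean CPM over 8 libraries. Only at 6232 to 6390, which holds the 3 deepest positions, did the libraries not overlap. They held 10991 to 16285 CPM there in mock and 25296 to 40511 with aphidicolin. In every other stretch the ranges overlapped, as at 2408 to 2650 (184 to 349 in mock, 223 to 589 with aphidicolin). Which mitochondrial gene each stretch lies in was not analysed here, since no annotation of the mm9 build was used.

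Strand was read from pairs of adjacent positions, the lower being the plus-strand cytosine of a CpG and the higher the minus-strand one. Of the 403 positions 340 formed 170 such dyads and 63 had no clear strand. Among the kept positions 15 were on the plus strand, 24 on the minus strand and 6 were unassigned. In all 9 dyads with both cytosines kept, the minus strand was covered deeper, by 1.46-fold at 134/135 to 511-fold at 6275/6276. At 6275/6276 the excess in oocytes was 378-fold. The deep stretch was thus read almost wholly from 1 strand.

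The share of calls scored as methylated was low at the 3 deepest positions. There it was 0.193% and 0.207% in the oocyte libraries, 0.173% to 0.264% in the mock libraries (mean 0.209% ± 0.0321, SD, n = 8) and 0.155% to 0.194% in the aphidicolin libraries (0.175% ± 0.0127, SD, n = 8). Position 6276 was the highest of these in the pronuclei, at 0.296% in mock and 0.231% in aphidicolin libraries on average, and position 6232 the lowest, at 0.152% and 0.134%. The mock and aphidicolin ranges of the 3 positions overlapped, and neither position-level test called any of them for treatment.

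Over the kept positions as a set the methylated share separated the treatments. Averaged over the 45 kept positions with equal weight, it had a mean of 0.903% ± 0.219 (SD, n = 8) in the mock libraries, from 0.540% to 1.33%, and of 0.114% ± 0.0713 (SD, n = 8) in the aphidicolin libraries, from 0.0366% to 0.256%. The oocyte libraries lay at 0.187% and 0.212%. The lowest mock library was above the highest aphidicolin library, and the oocytes lay within the aphidicolin range. The aphidicolin libraries were lower by 0.789 percentage points (value -0.789, exact two-sided stratified permutation test, n = 8 against 8, p = 0.00154, the smallest it can give, adjusted p = 0.00772). With calls pooled over positions, which lets the 3 deepest dominate, the difference was only -0.0458 points (exact permutation p = 0.00309). Without the 3 deepest positions, averaged over the other 42 kept ones, it was -0.843 points (exact permutation p = 0.00154). Over all calls outside the 3 deepest positions, pooled, it was -1.28 points (exact p = 0.00154).

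**Figure D3:**
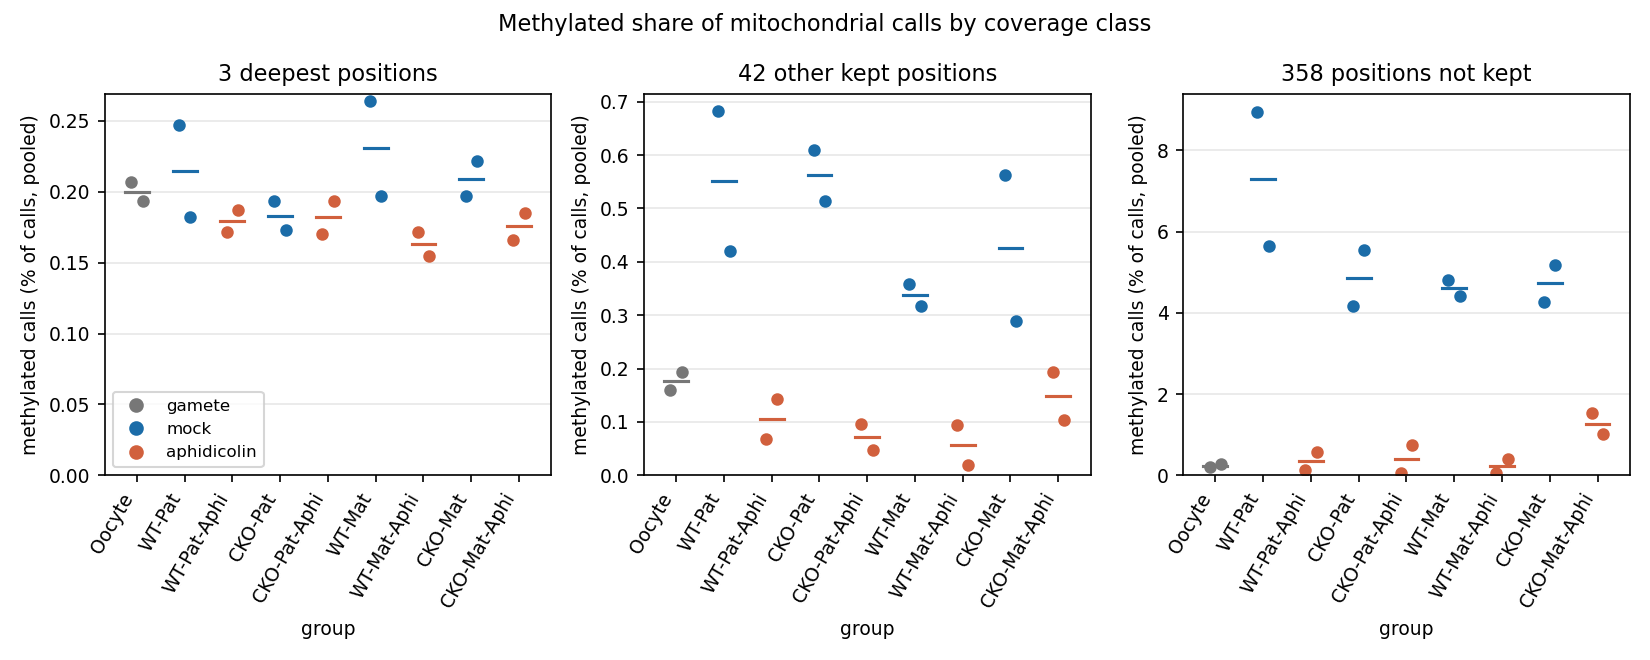
Methylated share of pooled mitochondrial calls in each library (points) with group means (bars), in percent, for the 3 deepest, the 42 other kept and the 358 thinly covered positions. Each panel has its own axis, reaching about 0.26%, 0.68% and 8.96%; mock libraries overlap aphidicolin libraries at the 3 deepest positions and lie above them in the other panels.

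The gap between the treatments was wider in the thinly covered class. In the 42 other kept positions, pooled, the mock libraries had 0.290% to 0.682% methylated calls, the aphidicolin libraries 0.0202% to 0.195% and the oocyte libraries 0.160% and 0.193%. In the 358 thinly covered positions the mock libraries had 4.18% to 8.96%, the aphidicolin libraries 0.0626% to 1.54% and the oocyte libraries 0.209% and 0.269%. The 2 treatments did not overlap in either class. The thin class held 4119 to 10108 calls in a mock library and 4139 to 20571 in an aphidicolin library, so these totals overlapped. The positions behind them differed in number. Mock libraries listed 257 to 317 mitochondrial positions (mean 297), kept ones included, and aphidicolin libraries 207 to 258 (mean 230). The pooled thin shares thus compare partly different positions, and depth per position was not matched. In a mock library 87 to 177 calls were methylated at the 42 positions and 328 to 561 at the 358. A thin share thus rests on few methylated calls per position. At 14954, named after its values were seen, all 1 to 6 calls were methylated in each mock library that listed it. The only aphidicolin library that listed it, WT-Mat-Aphi replicate 2, had 1 of 1 call methylated. The oocyte libraries had 0 of 26 and 0 of 42.

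Both kinds of call moved between the treatments, in opposite directions. Unmethylated mitochondrial calls outside the 3 deepest positions had a CPM of 530 to 748 in mock, 730 to 1473 in aphidicolin and 9554 and 10664 in oocyte libraries. Methylated ones had a CPM of 7.27 to 12.8 in mock, 0.847 to 4.06 in aphidicolin and 16.5 and 22.4 in oocyte libraries. The methylated level of every mock library lay above that of every aphidicolin library, and both oocyte libraries lay above both pronuclear sets. No test was run on these CPM values.

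By position, 43 of the 45 kept positions had a lower mean with aphidicolin, the exceptions being positions 135 and 2489. The median difference was -0.398 points, against 0 over the 18426 nuclear positions that passed the same coverage rule, of which 26.0% were lower. In a quasi-binomial model fitted to all 18471 positions, 14 of the 45 passed an adjusted p under 0.05 and all 14 were lower with aphidicolin. In that model 9.1% of all positions were called in either direction and 2.22% were called lower. With a limit of 50 reads, which left 39 mitochondrial positions, the model called 0 of them, with 14 at an unadjusted p under 0.05. The count was 7 without CKO-Mat-Aphi replicate 2, 8 without WT-Mat-Aphi replicate 1, and 9 without CKO-Pat-Aphi replicate 2 or without WT-Pat-Aphi replicate 2. On simulated data the model called 69 of 18271 unchanged positions, beside 34, 41 and 42 of those changed by 10, 20 and 40 points. False calls there thus exceeded the share that an adjusted p under 0.05 is meant to allow. The test of limma on arcsine-transformed shares is therefore given beside the model. It called 8 of the 45, all lower, and these were the only 8 of the 18471 positions it called lower (0.0433%, with 0.612% called in either direction). Both tests called 7 positions, 3344, 3387, 3401, 3410, 3412, 5889 and 5904. Neighbours among them can share reads, so the 7 are not independent. The kept mitochondrial positions had a median depth of 443 calls per pronuclear library against 78.75 for the nuclear ones, and how far that bears on the counts was not tested.

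**Figure D4:**
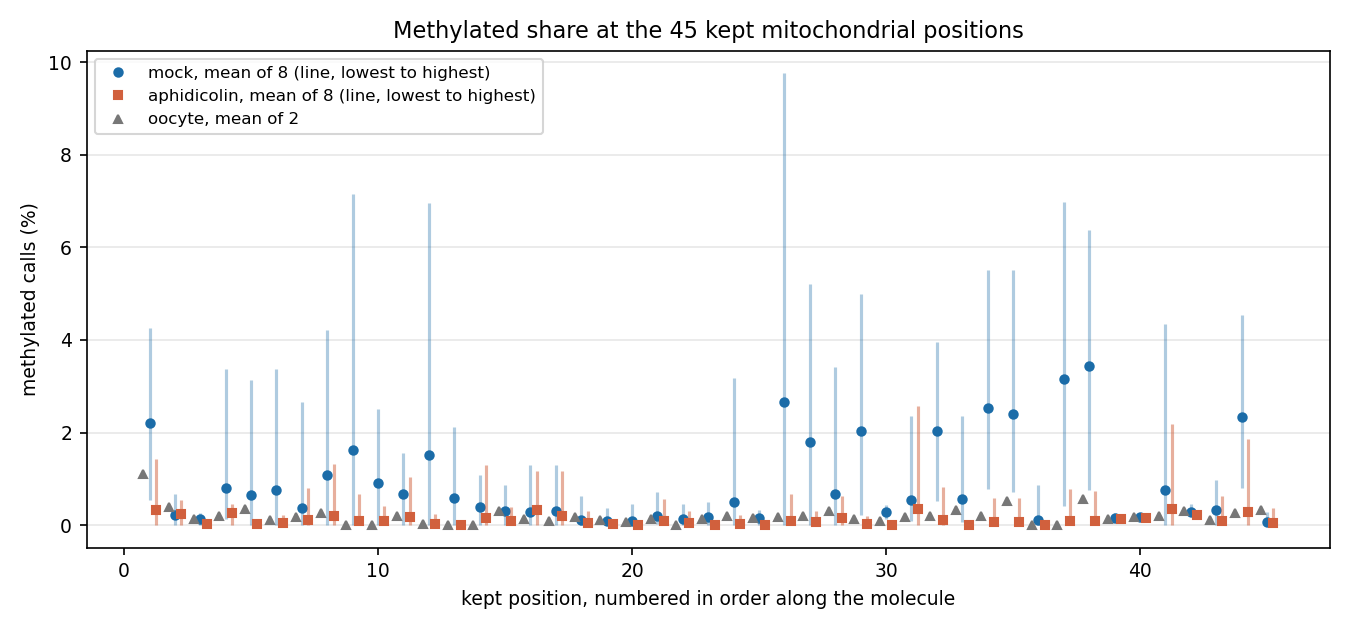
Methylated calls in percent at the 45 kept positions, numbered in order along the molecule, as means of the 8 mock (circles), 8 aphidicolin (squares) and 2 oocyte libraries (triangles), with lines from the lowest to the highest library. Mock means lie above aphidicolin means at 43 of 45 positions, and the highest mock library reaches 9.76% at position 2650.

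The highest mean shares over the 16 pronuclear libraries were at 5904 and 5889. At 5904 the mock libraries ran from 0.769% through a median of 3.51% to 6.36%, and the aphidicolin libraries from 0% through 0% to 0.730%, with 0.396% and 0.754% in oocytes. The treatments did not overlap there (adjusted p = 0.00855 in the quasi-binomial model and 0.00216 in limma). At 5889 the mock libraries ran from 0.415% (median 2.31%) to 6.98%, the aphidicolin libraries from 0% (median 0%) to 0.787%, and both oocyte libraries were at 0%. Those 2 positions lie 15 bases apart and can share reads, so they are not independent.

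Position 2650 followed, with 0% to 9.76% in mock libraries (median 1.23%) and 0% to 0.667% with aphidicolin (median 0%). Its high values were the WT-Pat libraries, at 9.76% and 6.47%, and its ranges overlapped. At 6390 the mock libraries ran from 0.806% (median 1.53%) to 4.55% and the aphidicolin libraries from 0% (median 0.0789%) to 1.86%. Neither test called 6390. At 3410 the mock libraries ran from 0.778% (median 1.96%) to 5.51% and the aphidicolin libraries from 0% (median 0%) to 0.592%. The ranges at 3410 did not overlap, and its neighbour 3412 had the same median, with an identical value in all 8 aphidicolin libraries.

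In 6 positions all 8 aphidicolin libraries lay below all 8 mock libraries, and these were the only such positions of the 18471 tested (0.0325%). They were 3344, 3387, 3402, 3410, 3412 and 5904, so 5 of the 6 lay in the stretch from 3333 to 3412. Positions this close can share reads, so the 6 are not independent. Mean coverage was 2681 calls at 3387 and 2645 at 3402, and 403 at 3410 and 407.5 at 3412. At 3387 the mock libraries ran from 0.126% (median 0.275%) to 0.441%, while all 8 aphidicolin libraries had no methylated call. Taking 3 calls over the pooled calls as the limit of a count of 0 allows a share of up to 0.0281%. Such a limit holds only if calls are independent. Position 3387 had the smallest limma p of the set (limma adjusted p = 1.74e-05, and 0.0189 in the quasi-binomial model). At 3402 the mock libraries ran from 0.0784% (median 0.308%) to 2.36% and the aphidicolin libraries from 0% to 0.0595% (quasi-binomial adjusted p = 0.00578, limma 0.0551). Position 2408 had the smallest quasi-binomial p, with 0% to 6.95% in mock (median 0.676%) and 0% to 0.246% with aphidicolin. Its adjusted p was 0.00262 in that model and 0.152 in limma, and its ranges overlapped.

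The lowest shares of the kept set were at positions 2535, 4187, 15466, 2521 and 2520, whose mock means lay between 0.0641% and 0.107%. At 2535 and at 4187 no aphidicolin library had a methylated call. The limit of 3 calls over the pooled calls was 0.0894% and 0.171% there, again only if calls are independent. At 15466 the oocyte libraries, at 0.271% and 0.372%, were above the mock mean of 0.0641%. None of these 5 was called for treatment. At position 2553, the next in coverage after the 3 deepest, the mock mean was 0.174% and the aphidicolin mean 0.00777% (quasi-binomial adjusted p = 0.0200, limma 0.176). At 2536 the means were 0.203% and 0.0951% and neither test called it. Most kept values were 0 with aphidicolin, 68.1% of them, against 24.7% in mock and 20.0% in oocyte libraries. The mock mean was above the oocyte mean at 40 of the 45 positions, and the aphidicolin mean at 12.

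The methylated share averaged over the kept positions passed no test for genotype or parent. The mean share over the 45 positions differed by 0.0235 points between CKO and WT (exact permutation p = 0.764) and by -0.0663 points between maternal and paternal pronuclei (exact p = 0.577). Within mock libraries the genotype difference was -0.00795 points (exact p = 0.944) and within aphidicolin libraries 0.0549 (exact p = 0.333). The parent difference was -0.193 points in mock (exact p = 0.389) and 0.0604 with aphidicolin (exact p = 0.222), so it had opposite signs. Over all calls outside the 3 deepest positions the parent difference within mock libraries was -0.459 points (exact permutation p = 0.0556, the smallest that stratum can give) and within aphidicolin libraries 0.105 (exact p = 0.333).

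For genotype the quasi-binomial model called 2 of 45 positions, 2650 and 2408, both lower in CKO, and limma called 0 (0.0% of all positions). In the model 4.27% of all positions were called in either direction and 2.01% lower. The 4.44% called among the 45 was near the share called in either direction, so the count sets these positions little apart. At an unadjusted p under 0.05 the count was 2 in each test. Position 2650 averaged 2.54% in WT and 0.196% in CKO libraries (adjusted p = 0.0422), and position 2408 averaged 1.29% and 0.248% (adjusted p = 0.0430). At 2650 the WT-Pat libraries had 9.76% and 6.47%, against 1.89% and 1.56% in WT-Mat. At 2408 the highest WT value was 6.95% in WT-Pat replicate 2, and the next was 2.13%. The next smallest p was at 5904 (adjusted p = 0.369). Leaving out any 1 library brought the count to 0 or 1.

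For parent the model called 3 of 45 (27.4% of all positions in either direction and 18.4% lower), 2408, 3402 and 1912, all lower in maternal libraries, and limma called 0 (15.6% of all positions). At an unadjusted p under 0.05 the counts were 4 and 3. Position 2408 averaged 1.41% in paternal and 0.128% in maternal libraries. Position 3402 averaged 0.505% and 0.0820%, and position 1912 averaged 0.679% and 0.125%. Each paternal mean rested largely on 1 library. WT-Pat replicate 2 had 6.95% at 2408 and 2.36% at 3402, and CKO-Pat replicate 1 had 3.37% at 1912. The next highest paternal values were 2.13%, 0.624% and 0.741%. Without WT-Pat replicate 2 the count was 0. The share of the 45 called for parent was below that of all positions tested. None of the 45 separated the parents without overlap, against 4.24% of all positions lower and 1.85% higher in maternal libraries.

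The WT-Mat libraries, averaged over the 45 positions, lay 0.516 points above the oocyte libraries (exact permutation p = 0.333, the smallest that 2 against 2 can give). The size rested on how positions were weighted and on the library: it was 0.0352 points with calls pooled over positions, 1.20 with a limit of 10 reads, and 0.341 without WT-Mat replicate 2.

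For comparison, the same libraries were read at 11009 nuclear positions that were at most 5% methylated in all 4 gamete libraries. Their level differed between the parents, so they give no single background level. In maternal pronuclei these nuclear positions had 0.478% to 0.846% methylated calls on average and in paternal pronuclei 1.43% to 2.29%. Over all 16 libraries the mitochondrial mean was lower by 0.731 points (value -0.731, exact sign-flip permutation p = 0.00113, adjusted p = 0.00772). The order was not the same in every stratum. In the 4 maternal mock libraries the mitochondrial mean was above the nuclear one in all 4, by 0.161 points on average (0.0616 to 0.355), with means of 0.807% and 0.646%. It was below in all 4 libraries of each other stratum, by values of -0.704 points in paternal mock, -0.586 in maternal aphidicolin and -1.79 in paternal aphidicolin pronuclei. The nuclear set did not fall with aphidicolin as the mitochondrial set did: it spanned 0.478% to 1.92% in mock and 0.668% to 2.29% in aphidicolin libraries. In the gametes, whose low values chose these positions, it was 0.296% and 0.314% in sperm and 0.0632% and 0.0720% in oocytes. The mitochondrial mean of the same 2 oocyte libraries, 0.212% and 0.187%, lay above the nuclear one.

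The strands of a dyad also differed in their methylated share. Over the 9 dyads with both cytosines kept, the plus-strand mean minus the minus-strand mean was 0.319 points over the 16 pronuclear libraries (exact sign-flip permutation p = 0.00473, adjusted p = 0.0177). It was above 0 in 8 of 8 mock libraries (0.173 to 1.19, mean 0.623 ± 0.382, SD, n = 8) and in 3 of 8 aphidicolin libraries (-0.240 to 0.217, mean 0.0143 ± 0.149, SD, n = 8). The oocyte libraries had 0.0339 and 0.0199. Whether the difference itself depended on treatment was not tested. With calls pooled over the dyads it was 0.148 points with exact p = 0.111, past no threshold. The plus strand was the higher one in 7 of 9 dyads in mock means and in 6 of 9 in aphidicolin means. At 134/135 it had 2.21% against 0.216%. It was also the strand with less coverage in all 9 dyads, so strand and depth cannot be told apart here.

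**Figure D5:**
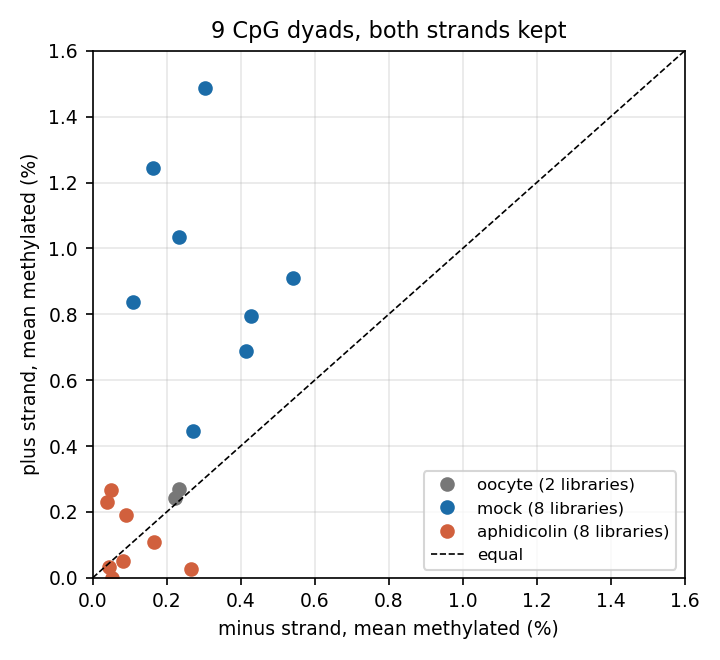
Mean methylated percent of the plus-strand cytosines against that of the minus-strand cytosines of the 9 dyads, one point per library, with the line of equality. All 8 mock libraries lie above the line, and aphidicolin and oocyte libraries lie near the origin.

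Among the thinly covered positions 249 held at least 20 pooled calls in each of the mock, aphidicolin and oocyte sets. Their median pooled share was 4.22% in mock, 0.151% in aphidicolin and 0% in oocyte libraries. A share of 10% or more was reached at 64 of them in mock, 4 in aphidicolin and 0 in oocytes. The 2 highest, named after their values were seen, were 5372, with 41 of 58 mock calls methylated against 1 of 53 with aphidicolin and 1 of 70 in oocytes, and 14627, with 29 of 72 against 0 of 54 and 0 of 273. Methylated calls at each of these 2 came from all 8 mock libraries.

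The sperm libraries held few mitochondrial calls and did not resemble each other. Of 1159 calls in replicate 1, 176 were methylated, 15.2% (95% Wilson interval 13.2 to 17.4), and of 1381 in replicate 2, 16 were, 1.16% (0.714 to 1.87). At the 3 deepest positions both were low, at 0.571% and 0.546%. Outside them 171 of 283 calls (60.4%) were methylated in replicate 1 and 9 of 100 in replicate 2. In replicate 1, 55 of the 112 positions listed outside the deepest had every call methylated, against 3 of 52 in replicate 2. Named after their values were seen, position 1343 had 15 of 15 calls methylated, 1333 had 12 of 12, 1376 had 8 of 8 and 1429 had 8 of 8 in that library. The oocyte libraries had 1 of 185 at 1343 and 1 of 108 at 1333. At 1376 and 1429 they had 0 of 990 and 0 of 127. The aphidicolin libraries had 8 of 8 at 1343, 7 of them in CKO-Mat-Aphi replicate 1, 6 of 6 at 1333, 7 of 407 at 1376 and 8 of 10 at 1429. The mock libraries had 7 of 33, 7 of 32, 6 of 74 and 12 of 37 at the same positions in that order. Pooled over all calls, WT-Pat minus sperm was -7.90 points (exact permutation p = 0.333, the smallest possible). Without sperm replicate 1 that value was -0.882 and without replicate 2 -14.9, so 1 library decided it.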

How the data were processed

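Reduced representation bisulfite libraries of mouse gametes and zygotic pronuclei were analysed from the deposited counts of methylated and unmethylated calls per CpG position, with no normalisation. The deposited percent equals methylated over all calls in every row. Bismark 0.10.1, Trim Galore and the mm9 build are named per the submitters' processing notes, with filters and deduplication not given in the sources used here. The labels gave each library's group and replicate number. The members and lists were chosen with earlier results of these data known. Coverage of at least 20 reads in all 18 non-sperm libraries was required for single positions.

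Shares were compared by exact two-sided permutation, within the 4 strata of the other 2 factors where all 16 pronuclear libraries entered, by 2 against 2 for gametes, or by sign flips over libraries, with Benjamini-Hochberg adjustment over 15 tests. Each position of the whole table (18471) was fitted with an additive quasi-binomial model of treatment, genotype and parent, its dispersion shrunk with limma 3.58.1 and floored at 1, with an F test and Benjamini-Hochberg adjustment over all of them. On simulated data with 200 changed positions this called 69 of 18271 unchanged positions, and limma on arcsine values 2. At changes of 10, 20 and 40 points the model recovered 50.7%, 61.2% and 63.6%, and limma 52.2%, 58.2% and 66.7%. The kept mitochondrial positions had a median treatment difference of -0.398 points. Recovery of changes that small was not simulated. After the first real counts had been seen, 2 other dispersion estimates were tried on the simulated data. Neither was better, and the first was kept. Positions named are the 5 highest, 5 lowest and 5 deepest kept ones and the 3 of smallest p for each factor, except where stated. Replicate numbers were not treated as pairs: same-numbered libraries of 28 pairs of groups correlated at -0.227 to 0.449, over 0.1 in 17 but not in all, and the labels tie no number to a shared animal or day. Python 3.11.15, numpy 2.4.6, scipy 1.17.1, R 4.3.3 and matplotlib 3.10.9 were used. Alternatives are in the closing section.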

Additional observations from a re-analysis of the deposited data

Results flagged for a closer look

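The 4 maternal mock libraries had a higher mitochondrial than unmethylated nuclear share, by 0.161 points on average, and the 4 maternal aphidicolin libraries a lower one, at -0.586 points, so the groups lay on opposite sides of 0. This difference between the groups was not tested.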

How the results depend on the processing

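Of 168 alternatives to the 8 tested differences over all 16 pronuclear libraries, 155 kept the direction and the side of the threshold, as did 54 of 57 for the 3 differences of effects, none of which passed. The 26 alternatives to the 4 gamete comparisons could not pass a threshold, so their side says nothing. Of 63 alternatives to the 3 counts of called positions, 33 lay within 1.5 times the count reported. The treatment differences in mitochondrial share and methylated share kept both under each alternative run, including the replicate block (p = 0.00781 for each, exact permutation) and leaving out each library (log2 share 1.16 to 1.29, methylated share -0.847 to -0.732 points). The methylated share of CKO relative to WT changed sign with calls pooled over positions (-0.00706), with 10 reads (-0.0151) and with some single libraries left out (-0.0340 to 0.0810), and that of maternal relative to paternal with pooled calls (0.00194) and with 10 reads (0.105). The genotype share ranged from -0.299 to -0.169 (exact permutation p = 0.0139 to 0.164) and the parent share from -0.258 to -0.128 (p = 0.0324 to 0.262, exact permutation) without each library. The treatment-by-genotype difference became -0.000273 without the 3 deepest positions, and the genotype-by-parent difference ran from -0.244 to 0.0167 without each library. The strand difference was 0.148 points pooled.

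Positions called for treatment were 0 with 50 reads, 8 in limma and 8 with a depth trend, and 7 to 13 without each library (lowest without CKO-Mat-Aphi replicate 2). For genotype the counts were 0 with 50 reads, 0 in limma and 0 with the trend, and 0 to 1 without each library. For parent they were 0 with 50 reads, 0 in limma and 1 with the trend, and 0 to 4 without each library. The replicate block gave 16, 2 and 3 called positions. Whether the thin positions' shares depend on duplicate reads was not tested. The cause of these changes was not tested.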
